A study of Mytilus galloprovincialis with 12 samples.

Results

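Exposure to chlorpyrifos followed by injection of 17β-estradiol (CHP/E2) was examined on 4 dual color arrays of digestive gland RNA from the mussel Mytilus galloprovincialis, 4 of the 12 arrays of the study. They were chosen by their titles, which name both compounds and the replicates 1 to 4. All animals were female and sampled in October. CHP/E2 mussels were kept in aquaria with chlorpyrifos (CHP) at 4.5 mg/l for 3 days by the labels and then received 25 pmol of 17β-estradiol (E2) in the posterior adductor muscle. The 4 CHP arrays (4.5 mg/l, labelled as 4 days) and the 4 E2 arrays (25 pmol injected, no CHP) serve here only for comparison. The study's methods instead give a single exposure time for all CHP-exposed mussels, before the injection. In the study, CHP mussels also received an injection of sea water with ethanol, and E2 mussels were first kept with DMSO. The vehicle-treated mussels used as the reference on every array were kept with 0.02% DMSO for 4 days and given, after 3 days, an injection of 50 µl of sea water with ethanol at 0.05%. Each RNA sample was a pool of digestive gland pieces from 6 mussels, so the spread between individual mussels was not measured, and a shift in the cell types of the gland cannot be told apart from a change of RNA per cell. The names of the scans give CHP/E2 replicates 3 and 4 the same treated pool number, and likewise E2 replicates 2 and 4, although the labels list 4 separate replicates in each group. All were kept separate with n = 4, and counts with such arrays averaged are given where they differ. If those arrays share a pool, the tests measure partly technical spread.

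Chlorpyrifos is an organophosphate insecticide. Animals convert it to an oxon that inhibits acetylcholinesterase, the enzyme that ends signalling by acetylcholine. The digestive gland of bivalves takes up and digests food within its cells, holds a large lysosomal system, stores nutrients and carries out much of the biotransformation of foreign compounds. 17β-estradiol is the main estrogen of vertebrates. Mussels contain it too, and how it acts in molluscs is less well understood. In this order of treatments, the comparison asks which transcripts differed from vehicle when the hormone followed the pesticide, and whether they differed from those seen with either compound alone.

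The array carries 1920 cDNA clones, each on 2 spots. The deposited table holds a value for 1816 of them, and these were tested. Clones are given by their Myt names: 0 of 1920 names occur in the RefSeq gene table of the species, so no gene, function or position is assigned to a clone here, and the tissue could not be checked against marker genes. A value is the log2 ratio of treated to vehicle RNA, where 1 stands for a doubling, and a clone was called differentially expressed at B over 0 in limma, B being the log odds that it changed.

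The median spot was 1.62 to 2.32 times its local background for the treated RNA on the 4 CHP/E2 arrays. For the reference RNA it was 1.15 to 1.39 times background on replicates 1, 2 and 3, where the reference carried Cy3, and 3.70 times on replicate 4, where the dyes were exchanged and the reference carried Cy5. The ratios of replicate 4 were turned accordingly, and on all 4 arrays they correlated with the deposited ratios at 0.898 to 0.955. Replicate 4 stood apart from the others. Across clones, which are not independent replicates, the ratios of replicates 1, 2 and 3 correlated with each other at r = 0.51 to 0.67, whereas those of replicate 4 correlated with them at -0.30, -0.43 and -0.16. Its ratios were also the widest, with an SD of 0.53 against 0.39, 0.43 and 0.30, and 77 clones lay above 1 on it against 20, 14 and 8 on replicates 1, 2 and 3. The dyes are stated in the labels, so the direction was kept, and results are also given without replicate 4. By the scan names, replicates 1 and 2 shared slide 3, replicate 3 was on slide 4 and replicate 4 on slide 8. Slide, dye and replicate 4 therefore cannot be told apart within these 4 arrays.

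With CHP/E2, 14 clones were called differentially expressed, which is 0.771% of the clones tested. All 14 were higher than vehicle (0.771% of the clones tested) and 0 were lower (0%). Adjusted after Benjamini-Hochberg, the limma p was under 0.05 for 6 clones (0.33%), all of them among the 14. When the 4 CHP/E2 arrays were fitted alone, 10 clones were called, 9 higher and 1 lower, of which 4 were among the 14, and 0 had an adjusted p under 0.05. Without adjustment 230 clones had a p under 0.05 (12.7%), of which 149 were higher (8.2%) and 81 lower (4.46%). The changes ranged from 0.27 to 2.00 on the log2 scale, with a median of 0.62 against -0.01 over all clones tested. The call was lost by many of these clones when single arrays were left out: without replicate 3, 8 clones were called and 6 of them were among the 14, and without replicate 4, 9 were called with 6 among the 14. With arrays of one treated pool number averaged, which merged CHP/E2 replicates 3 and 4 and also E2 replicates 2 and 4, 5 clones were called, and all 5 were among the 14. In that fit 4 clones had an adjusted p under 0.05 in limma. Those 5 were Myt01-008E11, Myt01-006D10, Myt01-001F11, Myt01-013D11 and Myt01-005C09.

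Each of the 14 clones lay above 0 on all 4 arrays, and so did both of its spots. The clones were called for being far from 0 on these same arrays, so their selection favours such agreement. The 2 spots of a called clone differed by a median of 0.043 on the log2 scale, against 0.069 for all tested clones. Most of the 14 were bright: 12 of 14 lay above the median brightness of the tested clones. The treated RNA exceeded the background by 2 of its SDs on all 4 arrays for all 14 clones. The reference RNA did so on all 4 arrays for 10 clones, on 3 arrays for 2 clones and on 1 array for 2 clones, Myt01-014H10 and Myt01-014B07. The ratios of those last clones rest on a vehicle signal near background.

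**Figure D1:**
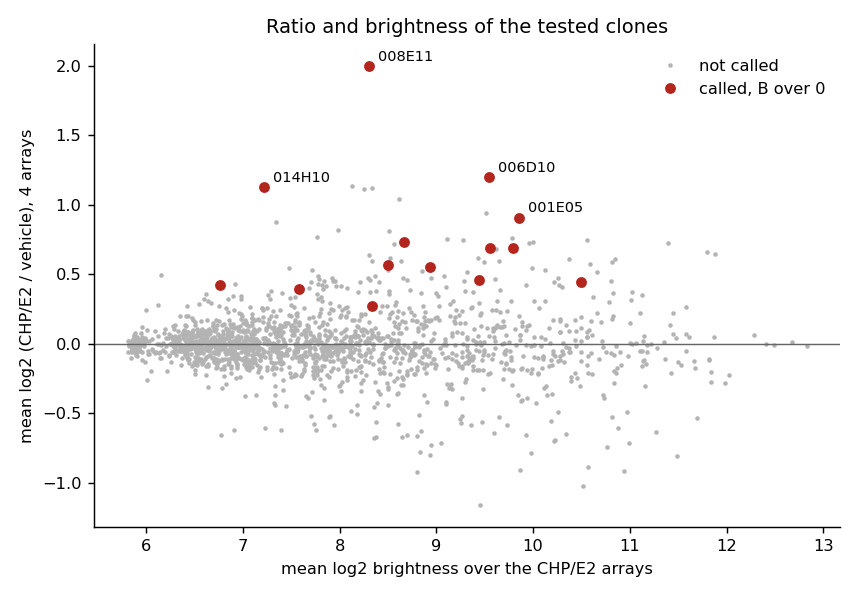
Mean log2 ratio of CHP/E2 to vehicle (y axis, 4 arrays) against mean log2 brightness over the CHP/E2 arrays (x axis) for the 1816 tested clones. The 14 called clones, in red, all lie above 0, between 0.27 and 2.00, and grey clones with means below 0 were not called.

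Myt01-008E11 showed the largest rise. Its log2 ratios were 2.46, 1.90, 1.39 and 2.25 on replicates 1 to 4. The lowest of these still exceeded every value of the other 13 called clones except the 1.40 and 1.59 of Myt01-006D10 on replicates 1 and 2 and the 2.33 of Myt01-014H10 on replicate 4. The mean was 2.00 ± 0.47 (SD, n = 4), a 3.99-fold higher level than in vehicle, with an adjusted p of 2.78e-05 in limma. The size depended on the processing: the mean was 1.30 without background correction and 2.62 with the deposited ratios. The treated RNA was brighter than the vehicle RNA on all 4 arrays before any normalization: above local background it read 858, 480, 334 and 1160.5 scanner units on replicates 1 to 4, and the vehicle RNA read 54, 67, 39 and 295.5 units. The vehicle signal of replicate 3 was not above background by 2 SDs. On replicates 1, 2 and 3 the treated channel was the brighter one in general, with a median spot at 1.62 to 2.32 times background against 1.15 to 1.39. On replicate 4 the reference channel was, at 3.70 against 1.94.

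Myt01-006D10 followed, with 1.40, 1.59, 1.13 and 0.68 on replicates 1 to 4. Replicate 4 was the lowest. The mean was 1.20 ± 0.39 (SD, n = 4), a 2.30-fold higher level, with an adjusted p of 0.0113 in limma. Both of these clones kept their call under all 30 alternative settings, including each array left out in turn.

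Myt01-014H10 had the widest spread of the 14. Its ratios were 0.70, 0.50 and 0.97 on replicates 1 to 3 and 2.33 on replicate 4, with a mean of 1.13 ± 0.83 (SD, n = 4). Replicate 4 was also the single array on which its vehicle RNA was above background. The adjusted p was 0.0706 in limma, the highest among the called clones, and the call was lost under 16 of 30 alternatives.

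**Figure D2:**
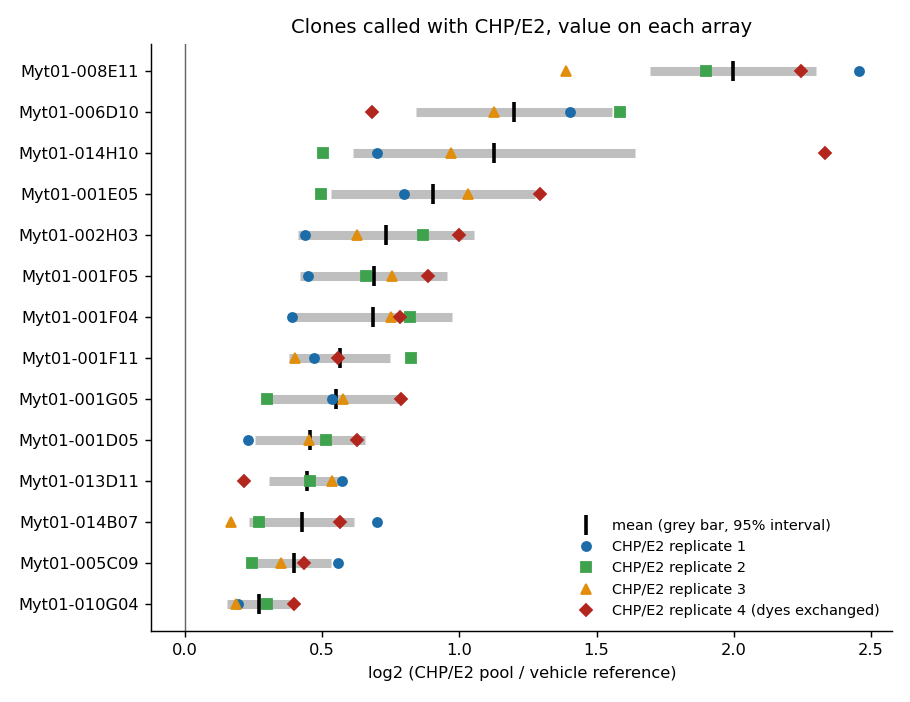
Log2 ratio of CHP/E2 pool to vehicle reference (x axis) on each of the 4 arrays for the 14 called clones (y axis), with the mean as a black tick and its 95% interval from limma as a grey bar. Every point lies above 0, and the clones order from a mean of 2.00 for Myt01-008E11 to 0.27 for Myt01-010G04.

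The next clones rose by about the same amount as one another. Myt01-001E05 had ratios of 0.80, 0.49, 1.03 and 1.29 on replicates 1 to 4, with a mean of 0.90 ± 0.34 (SD, n = 4). Myt01-002H03 had 0.44, 0.87, 0.63 and 0.998, with a mean of 0.73 ± 0.25 (SD, n = 4). In both, replicate 4 was the highest array. Myt01-001F05 had 0.45, 0.66, 0.76 and 0.88, with a mean of 0.69 ± 0.18 (SD, n = 4) and an adjusted p of 0.0436 in limma. Myt01-001F04 had 0.39 on replicate 1 and 0.82, 0.75 and 0.78 on the other arrays, with a mean of 0.68 ± 0.20 (SD, n = 4). The 95% intervals of these 4 clones overlapped one another and together spanned 0.40 to 1.28. Of the 4, Myt01-001F05 was the one with an adjusted p under 0.05, but it lost its call without replicate 2, without replicate 3 and without replicate 4.

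Myt01-001F11 changed less, at 0.47, 0.82, 0.40 and 0.56 on replicates 1 to 4. Its mean was 0.56 ± 0.18 (SD, n = 4), a 1.48-fold higher level, with an adjusted p of 0.0156 in limma. Replicate 2 was its highest array and the other 3 lay close together. Myt01-001G05 had 0.53, 0.30, 0.58 and 0.79, with a mean of 0.55 ± 0.20 (SD, n = 4), and Myt01-001D05 had 0.23, 0.51, 0.45 and 0.63, with a mean of 0.45 ± 0.17 (SD, n = 4). Neither of the latter passed an adjusted p of 0.05, and both lost their call with arrays of one treated pool number averaged.

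The remaining called clones had means below 0.5. Myt01-013D11, the brightest of the 14, had 0.57, 0.46, 0.54 and 0.21 on replicates 1 to 4, with a mean of 0.44 ± 0.16 (SD, n = 4) and an adjusted p of 0.0113 in limma. Replicate 4 was its lowest array. Myt01-005C09 had 0.56, 0.24, 0.35 and 0.43, with a mean of 0.40 ± 0.13 (SD, n = 4), a 1.32-fold higher level, and an adjusted p of 0.0164 in limma. Myt01-014B07 had 0.70, 0.27, 0.17 and 0.56, with a mean of 0.42 ± 0.25 (SD, n = 4). It was the dimmest of the 14 and the one that lost its call most often, under 22 of 30 alternatives. Myt01-010G04 had 0.19, 0.30, 0.18 and 0.40, with a mean of 0.27 ± 0.10 (SD, n = 4), a 1.20-fold higher level and the smallest change among the called clones.

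The arrays ranked differently among the called clones. Replicate 4 gave the highest ratio for 7 of the 14, replicate 1 for 4, replicate 2 for 3 and replicate 3 for 0. The lowest ratio came from replicates 1, 2 and 3 for 4 clones each and from replicate 4 for 2 clones. The median ratio of the 14 was 0.55, 0.51, 0.60 and 0.73 on replicates 1 to 4. Each lay above the median of all tested clones on the same array, which follows from how the 14 were selected.

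The called clones were not spread evenly over the source plates, as read from the plate and well in the clone names. Plate 1 held 6 of the 14, which is 6.38% of its 94 tested clones against 0.771% over the array. The other 8 came from 7 plates, with 2 from plate 14. Of the 6 on plate 1, 5 lay side by side in the wells D05, E05, F04, F05 and G05, and the sixth was F11. The 8 wells formed by rows D to G of columns 4 and 5 all had ratios above 0 on all 4 arrays, with means from 0.38 to 0.90. This block was drawn around the 5 called wells after the values were seen, so those 5 were high by selection. Clones above 0 on all 4 arrays were frequent throughout the first 6 columns of this plate, 23 of 48, against 4 of 46 in the last 6 columns and 10.5% over all clones tested. On the array itself, Myt01-001D05 and Myt01-001F05 were printed next to each other in block 15, Myt01-001E05 and Myt01-001G05 next to each other in block 13, and Myt01-001F04 in block 7. When loess was fitted within print blocks, Myt01-001D05 and Myt01-001F05 lost their call and the other 3 kept theirs. Whether neighbouring wells hold the same transcript was not tested, as no clone sequence was used here.

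**Figure D3:**
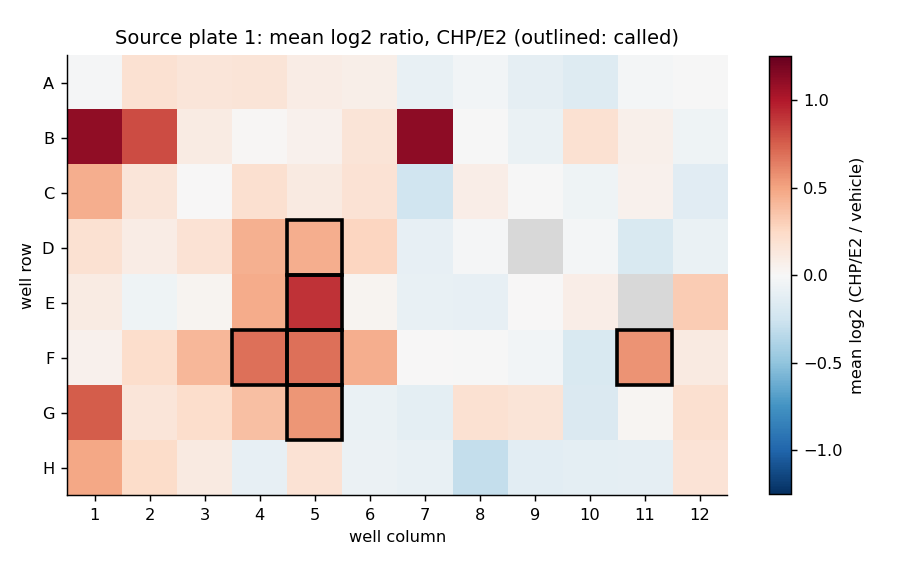
Mean log2 ratio of CHP/E2 to vehicle in each well of source plate 1 (rows A to H, columns 1 to 12), with called clones outlined and untested wells in grey. Of the 6 outlined wells 5 touch each other in rows D to G of columns 4 and 5, and 23 of the 48 wells in columns 1 to 6 were above 0 on all 4 arrays.

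Some clones of plate 1 changed more than its called clones without passing. Myt01-001B01, chosen after its values were seen, had 0.71, 0.97, 1.23 and 1.52 on replicates 1 to 4 and a mean of 1.11. All 4 arrays were well above 0, yet its adjusted p was 0.151 in limma, with a standard error of 0.30 from the spread over all 12 arrays. Over the whole array 7 clones had a mean above 1, of which 3 were called, and 2 had a mean below -1, of which 0 were called.

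Just below the threshold lay 5 clones with means between 0.53 and 0.81. Myt01-008G06 had ratios of 0.77, 0.63, 0.23 and 0.75 on replicates 1 to 4 and a mean of 0.60. Myt01-004B11 had 0.80, 0.54, 0.80 and 0.83 and a mean of 0.74, and Myt01-002E05 had 0.78, 0.34, 0.83 and 1.30 and a mean of 0.81. All 4 values of each were above 0, as in the called clones, with adjusted p from 0.0886 to 0.114 in limma. Myt01-009D08 had 1.24, 0.66, 0.36 and 0.36 and a mean of 0.66, and Myt01-010D08 had 0.95, 0.39, 0.31 and 0.47 and a mean of 0.53. These last clones are bright ones that also lay above 0 on every array of the other treatments: Myt01-009D08 had means of 0.97 with CHP and 0.70 with E2, and Myt01-010D08 had 0.77 and 0.63. Under at least 2 of the 30 alternatives each of the 5 was called.

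As given above, 0 clones were called lower than vehicle in limma. Under 7 of the 30 alternatives 1 to 4 clones were called lower, with the 4 from duplicate spots fitted separately, and under the other 23 alternatives 0 were. Below 0 on all 4 arrays were 133 clones (7.32%), against 191 above 0 on all 4 (10.5%). Among the former, Myt01-010H04 had the lowest mean, with -0.83, -0.36, -1.38 and -0.97 on replicates 1 to 4 and a mean of -0.88 ± 0.42 (SD, n = 4), a 1.85-fold lower level. Its adjusted p was 0.156 in limma, and its 95% interval ran from -1.44 to -0.33. Of the 5 lowest of these 133 clones, Myt01-003B11 had the smallest SD, with ratios of -0.65, -0.50, -0.78 and -0.78, a mean of -0.68 ± 0.13 (SD, n = 4) and an adjusted p of 0.122 in limma. Myt01-010H07 had -0.89, -0.28, -0.91 and -0.79 and a mean of -0.72. Myt01-008H05 had -0.98, -1.17 and -0.94 on replicates 1 to 3 and -0.03 on replicate 4, whereas Myt01-017B09 had -0.50, -0.29 and -0.33 on replicates 1 to 3 and -1.58 on replicate 4. In these clones the array with exchanged dyes stood apart from the other 3, in opposite directions.

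That array carried the largest disagreement among the 4. For 55 clones (3.03% of those tested) the ratios had an SD above 1 across the arrays, and 0 of the 14 called clones were among them. In 38 of the 55, replicates 1, 2 and 3 lay below 0 and replicate 4 above 0. Myt01-015C01 was the most variable, at -2.09, -3.44, -1.74 and 3.16 on replicates 1 to 4. Myt01-015C07 had -2.01, -3.04, -1.50 and 2.91, and Myt01-006C06 had -2.13, -3.08, -1.90 and 2.47. Both spots of these clones moved together on each array, by 3.14 and 3.17 for Myt01-015C01 on replicate 4. Myt01-015B01, at -1.94, -2.49, -1.56 and 2.83, and Myt01-007H10, at -1.94, -2.64, -1.76 and 2.67, had the same course. In Myt01-015C01 the CHP arrays were as variable, at 1.99, -1.31, 5.67 and 4.53 on replicates 1 to 4, of which replicate 3 alone had exchanged dyes, while E2 gave -2.14, -0.14, -0.20 and 0.13. The part of the dyes or of the single pools in these values was not tested. Without the 55 clones, a setting chosen after seeing the data, the correlations of replicate 4 with replicates 1, 2 and 3 were 0.07, 0.01 and 0.16, and 14 clones were called, the same 14.

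**Figure D4:**
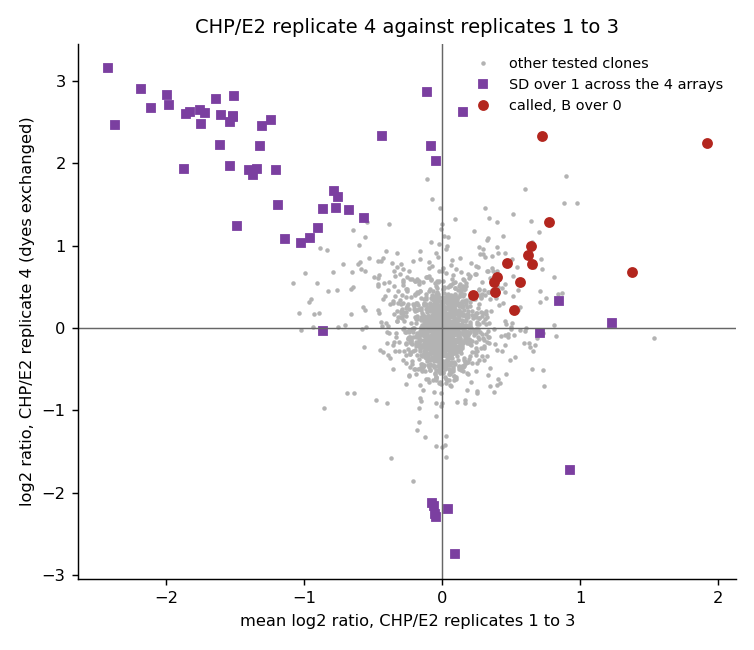
Log2 ratio on CHP/E2 replicate 4, hybridized with exchanged dyes (y axis), against the mean log2 ratio of CHP/E2 replicates 1 to 3 (x axis) for the 1816 tested clones. The 14 called clones (red) lie in the upper right, above 0 on both axes, and most of the 55 clones with an SD over 1 (purple) lie in the upper left, lower on replicates 1 to 3 and higher on replicate 4.

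The 14 clones were then set beside the arrays of CHP and E2 alone. The treatments share the vehicle reference: by the scan names, replicates 1, 2 and 3 of E2 and of CHP/E2 carried vehicle pools of the same number. Values are therefore given side by side. Over the 14 clones the median ratio was 0.62 with CHP/E2, 0.78 with CHP and 0.18 with E2, while over all tested clones it was -0.01 with CHP/E2 and -0.003 with either compound alone. Direct contrasts called 3 clones for CHP/E2 minus CHP (0.165% of the clones tested) and 6 for CHP/E2 minus E2 (0.33%), all higher with CHP/E2. By the labels CHP lasted 4 days on the CHP arrays and 3 days on the CHP/E2 arrays. The study's methods give a single exposure time for both groups. If the labels hold, E2 and the length of exposure cannot be told apart in CHP/E2 minus CHP. With scaling between arrays, 9 clones were higher and 2 lower for CHP/E2 minus E2. None of the 14 (0 of 14) was called for CHP/E2 minus CHP, and 3 of 14 were called for CHP/E2 minus E2. Single arrays moved these counts: without CHP replicate 2, 20 clones were called for CHP/E2 minus CHP, 16 of them lower, and 2 were called for CHP/E2 minus E2 without CHP/E2 replicate 3. With arrays of one treated pool number averaged, 3 clones were called for CHP/E2 minus CHP. For CHP/E2 minus E2 that setting gave 5, of which 4 were higher and 1 lower. The 14 were selected on the CHP/E2 values that enter these contrasts.

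Myt01-008E11 was high with CHP too, at 1.55, 1.91, 1.83 and 2.00 on CHP replicates 1 to 4, and near 0 with E2, at 0.26, 0.22, 0.12 and 0.23. CHP/E2 exceeded E2 by 1.79 (95% interval 1.36 to 2.22, adjusted p 0.00296 in limma), with no overlap between those arrays. The difference to CHP was 0.18 with an interval from -0.25 to 0.60. Myt01-006D10 had means of 1.11 ± 0.34 with CHP and 0.30 ± 0.31 with E2 (SD, n = 4), and its CHP/E2 arrays overlapped with both. The difference to E2 was 0.90, with an interval from 0.39 to 1.40 and an adjusted p of 0.208 in limma.

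Myt01-001F11 and Myt01-013D11 were called for the contrast with E2. The former had means of 0.79 ± 0.10 with CHP and -0.08 ± 0.21 with E2, and its difference to E2 was 0.65 (95% interval 0.39 to 0.91, adjusted p 0.0744 in limma). Myt01-013D11 had 0.69 ± 0.08 with CHP and -0.05 ± 0.08 with E2, and its difference to E2 was 0.49 (95% interval 0.30 to 0.69, adjusted p 0.0744 in limma). In Myt01-013D11 all 4 CHP/E2 arrays lay below all 4 CHP arrays, which ran from 0.61 to 0.80. The share of all tested clones that lay below in this way was not counted. The contrast to CHP was -0.24 with an interval from -0.44 to -0.05 and was not called, with an adjusted p of 0.3 in limma.

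The neighbouring clones of plate 1 were as high or higher with CHP. Myt01-001E05 had means of 1.24 with CHP and 0.34 with E2, Myt01-001F05 had 0.82 and 0.21, and Myt01-001F04 had 0.86 and 0.26. Myt01-001G05 had 0.78 with CHP and 0.15 with E2, and Myt01-001D05 had 0.43 and 0.11. Differences to CHP for these 5 ran from -0.34 to 0.02, with intervals that all included 0. Myt01-002H03 on plate 2 had a similar pair of means, 0.81 with CHP and 0.31 with E2. For Myt01-014H10 they were 0.67 and 0.30.

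The remaining clones had means of 0.21 or lower with either compound alone. Myt01-014B07 had means of 0.21 with CHP and -0.07 with E2, and Myt01-005C09 had 0.14 and -0.002. Both lay above 0 on all 4 CHP arrays, at 0.04 to 0.35 and at 0.02 to 0.25. Their unadjusted p with CHP was 0.0346 and 0.0404 in limma, and neither was called with CHP. Myt01-010G04 had -0.12, -0.13, 0.10 and -0.12 on CHP replicates 1 to 4 and 0.07, 0.06, 0.01 and 0.07 on E2 replicates 1 to 4. Its CHP/E2 values of 0.18 to 0.40 lay above all 8 of these arrays. Of all tested clones, 3.47% had every CHP/E2 array above all CHP arrays and 3.47% had every one above all E2 arrays. The share above both groups together was not counted. Its difference to CHP was 0.33 (95% interval 0.17 to 0.50, adjusted p 0.184 in limma) and its difference to E2 0.22 (95% interval 0.05 to 0.38, adjusted p 0.425 in limma), and neither was called. The difference of Myt01-005C09 to E2 was 0.40, with an interval from 0.21 to 0.59 and an adjusted p of 0.157 in limma.

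**Figure D5:**
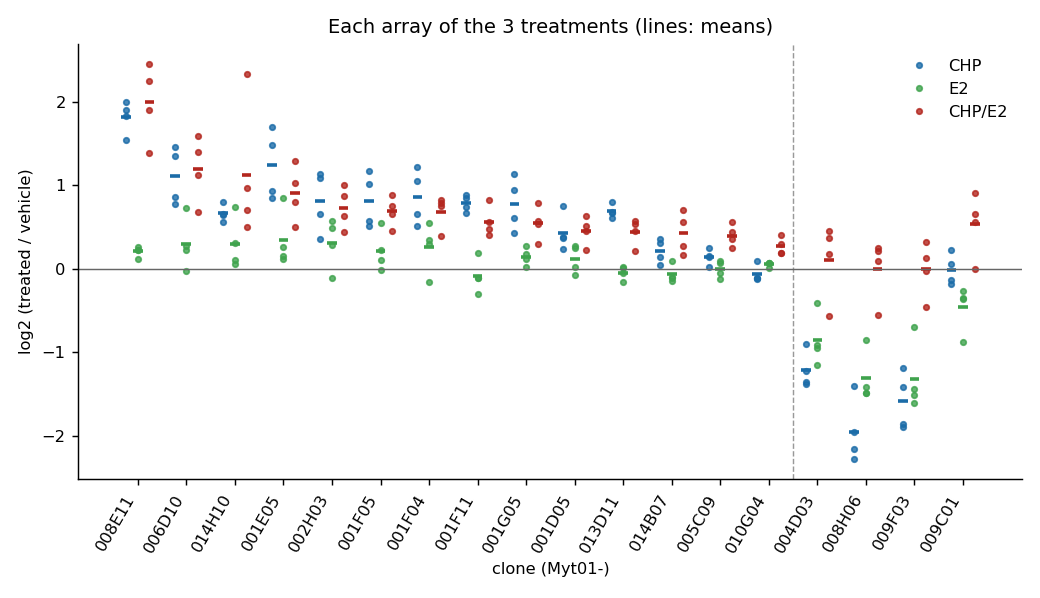
Log2 ratio of treated to vehicle RNA (y axis) on each array of CHP (blue), E2 (green) and CHP/E2 (red) for the 14 clones called with CHP/E2 and, right of the dashed line, 4 clones called in a contrast between treatments, with lines at the means of 4 arrays. Myt01-008E11 is high with CHP and CHP/E2 and near 0 with E2, and Myt01-008H06 is at -0.86 or lower on every CHP and E2 array but between -0.55 and 0.25 with CHP/E2.

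The clones called for CHP/E2 minus CHP were ones that stayed near vehicle level after the combined treatment. They are named because a contrast called them, after their values were seen. Myt01-008H06 had ratios of 0.21, 0.09, 0.25 and -0.55 with CHP/E2 on replicates 1 to 4. With CHP it had -2.16, -1.41, -1.96 and -2.29, and with E2 -0.86, -1.49, -1.49 and -1.42. All 4 CHP/E2 arrays lay above all 8 arrays of the single compounds. The mean with CHP/E2 was 0.00 ± 0.38 (SD, n = 4), and it exceeded CHP by 1.95 (95% interval 1.44 to 2.47, adjusted p 0.00786 in limma) and E2 by 1.31 (95% interval 0.80 to 1.83, adjusted p 0.0744 in limma).

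Myt01-009F03, brighter than 99.9% of the tested clones, had 0.32, -0.03, 0.12 and -0.46 with CHP/E2 on replicates 1 to 4. With CHP it had -1.42, -1.19, -1.90 and -1.86, and with E2 -0.70, -1.44, -1.51 and -1.62. Here too, no CHP/E2 array overlapped with those of either compound. CHP/E2 exceeded CHP by 1.58 (95% interval 1.05 to 2.11, adjusted p 0.0344 in limma) and E2 by 1.31 (95% interval 0.78 to 1.83, adjusted p 0.0744 in limma). Myt01-004D03 had 0.36, 0.45, 0.18 and -0.57 with CHP/E2, -1.36, -0.91, -1.39 and -1.23 with CHP, and -0.42, -0.92, -0.95 and -1.15 with E2. It exceeded CHP by 1.33 (95% interval 0.82 to 1.83, adjusted p 0.0691 in limma). With E2 it overlapped on replicate 4 of CHP/E2, and the difference of 0.97 was not called. In all 3 clones replicate 4 was the lowest CHP/E2 array and the only one below -0.1.

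Myt01-009C01 differed from E2. It had 0.65, -0.01, 0.56 and 0.91 with CHP/E2 on replicates 1 to 4 and -0.35, -0.27, -0.37 and -0.87 with E2, with no overlap, and -0.14, -0.19, 0.22 and 0.05 with CHP. The difference to E2 was 0.99 (95% interval 0.57 to 1.42, adjusted p 0.104 in limma). Its mean of 0.53 against vehicle was not called.

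The precision of a ratio in the fit over the arrays of all treatments can be read from its interval. That interval reflects the spread within every treatment, not the spread of the CHP/E2 arrays alone. With the CHP/E2 arrays fitted alone, standard errors moved in both directions. For Myt01-008E11 the standard error was then 0.190 against 0.137, and for Myt01-001F05 it was 0.088 against 0.121. The 95% interval of a ratio had a median width of 0.41 on the log2 scale. For 1689 clones (93.0%) the whole interval lay between -1 and 1, and for 1417 clones (78.0%) it lay between -0.5 and 0.5. For the other 127 clones the interval reached past 1 or -1, and these include called clones such as Myt01-008E11. These counts include dim clones. Of the 1816 tested, 1225 were above background by 2 SDs in either channel on every CHP/E2 array. The reference RNA exceeded background for 64.8%, 73.6% and 44.0% of tested clones on replicates 1, 2 and 3. For clones near background a narrow interval does not bound the change in RNA.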

How the data were processed

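The 12 arrays were grouped by their labels. The authors deposited scanner intensities, the mean of each spot and the median of its local background in the Cy5 and Cy3 channels, neither background-subtracted nor normalized. They also deposited a table of normalized log2 ratios, rounded to 2 decimals. The submitters' notes name limma, with no version, and how these ratios were normalized is not given in the sources used here.

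The intensities were background-corrected by normexp with an offset of 50. Loess then normalized each array, with 720 alignment and blank spots at weight 0. Ratios of arrays with treated RNA in Cy3 were turned, and the 2 spots of a clone averaged. Clones without a deposited value (104) were not tested. One fit over 12 arrays with 3 coefficients (lmFit, eBayes, prior proportion 0.01, two-sided) gave each ratio and contrast, and was checked on simulated data. Adjusted p-values are Benjamini-Hochberg over 1816 clones. Software was limma 3.58.1 and statmod 1.5.0 under R 4.3.3.

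Named clones were the called ones, the 5 next by B, the 5 lowest below 0 on all 4 arrays and the 5 most variable, besides those stated as chosen later. The comparisons, lists and this rule were chosen with earlier results of these data known. Planned gene lists could not be applied without gene names. Alternatives covered background, normalization, dyes, slides, replicate pairing, weights, filters, the threshold and each array left out.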

Additional observations from a re-analysis of the deposited data

Results flagged for a closer look

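Among 33 named clones, 4 had one CHP/E2 array far from the other 3. Chance flags about 1 in 20 groups of values not chosen by their spread, whereas these clones were named for their values, 5 of them for varying most across the same arrays. The 4 were Myt01-001F04 on replicate 1 (0.39), Myt01-004B11 on replicate 2 (0.54), Myt01-017B09 on replicate 4 (-1.58) and Myt01-007H10 on replicate 4 (2.67). The reference signal of replicate 4, at 3.70 times background, also lay far from that of replicates 1, 2 and 3, which carried the other dye.

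By the test of the difference itself, 7 clones were called at B over 0. They were 3 for CHP/E2 minus CHP (0.165% of the clones tested) and 6 for CHP/E2 minus E2 (0.33%), with Myt01-008H06 and Myt01-009F03 in both. The adjusted p was under 0.05 in limma for Myt01-008H06 and Myt01-009F03 against CHP and for Myt01-008E11 against E2. For the other differences it was 0.0691 to 0.104. CHP/E2 exceeded CHP by 1.33 in Myt01-004D03, 1.95 in Myt01-008H06 and 1.58 in Myt01-009F03. It exceeded E2 by 1.79 in Myt01-008E11, 0.65 in Myt01-001F11, 0.49 in Myt01-013D11, 1.31 in Myt01-008H06, 1.31 in Myt01-009F03 and 0.99 in Myt01-009C01.

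Of the 104 clones without a deposited value, 1 was called when all 1920 clones were fitted. Myt01-002H04 had ratios of 0.74, 1.38, 1.16 and 1.60 on CHP/E2 replicates 1 to 4, a mean of 1.22 and an adjusted p of 0.0398 in limma.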

How the results depend on the processing

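The number of clones called with CHP/E2 was 14. It was 9 without background correction, 24 with a dye term, 25 with array weights (22 higher, 3 lower), 50 with duplicate spots fitted separately (46 higher, 4 lower), 5 with arrays of one treated pool number averaged, 6 at an adjusted p under 0.05 and 8 without source plate 1, the last chosen after seeing the data. Leaving out 1 array gave 8 to 14, with 8 without CHP/E2 replicate 3 and 9 without CHP/E2 replicate 4. For CHP/E2 minus CHP (3 called) the same settings gave 5 without background correction, 8 with the dye term, 9 with weights (8 higher, 1 lower) and 28 with separate spots (11 higher, 17 lower). Median centring gave 1 and the deposited ratios 7, of which 5 were higher and 2 lower. Leaving out 1 array gave 2 to 20. The 20 came without CHP replicate 2, with 16 of them lower, and 5 when replicate 2 or 4 of CHP/E2 or replicate 3 of CHP was left out. For CHP/E2 minus E2 (6 called) median centring gave 1, scaling between arrays 11 (9 higher, 2 lower), the dye term 11, weights 21 (14 higher, 7 lower), separate spots 28 (20 higher, 8 lower) and the adjusted p 1. Leaving out 1 array gave 2 to 9, with 2 without E2 replicates 2, 3 or 4 and 2 without CHP/E2 replicate 3. The causes were not tested. Fits of single named clones left out the 5 most variable clones and those named for a contrast between treatments. In the 714 fits of the others 0 turned direction, but many settings leave the CHP/E2 mean unchanged and could not turn it. Of the 414 fits of called clones 112 lost the call, and 32 fits of uncalled clones gained one.

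The deviations of same-numbered arrays correlated at -0.45 to 0.60, and 6 of 12 pairs exceeded 0.1. Their median was 0.06, against -0.08 for other pairs. Some same-numbered arrays carried the treated RNA in different dyes, so these correlations cannot decide whether such arrays pair. With the replicate block, 10, 3 and 4 clones were called in the 3 comparisons. With slide as a random block 13 were called with CHP/E2. Signal over background limited the reference channel on replicates 1, 2 and 3.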
